A study of Homo sapiens with 36 samples.

Results

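The 18 arrays described here measured RNA of cells transfected with a negative control siRNA, out of 36 arrays in all. They were chosen by their labels: 9 arrays came from cells with a Dharmacon negative control siRNA and 9 from cells with a Sigma negative control siRNA. Each control siRNA was measured at 0, 4 and 8 h of 4-hydroxytamoxifen (OHT), with 3 arrays at each time that the labels call biological replicates. The cells were U2OS ER-HA-E2F1, a human osteosarcoma line with an E2F1 protein fused to the estrogen receptor, so that OHT switches E2F1 on. In every group serum was withdrawn 18 h after transfection and the cells were starved for 24 h, and at 4 and 8 h they had then spent that time in serum-free medium with 80 nM OHT. The other 18 arrays came from cells in which 1 of 2 siRNAs, from Ambion and from Dharmacon, targeted NFYB, a subunit of the transcription factor NF-Y. They entered the estimate of the spread between replicates and are otherwise used only where named. The comparison asked which transcripts differed between cells that carried either of 2 siRNAs without an intended target, and whether the same transcripts differed at every time. No array of untransfected or mock-transfected cells was analysed here, so an increase with the Dharmacon siRNA and a decrease with the Sigma siRNA cannot be told apart. The p-values measure the spread between arrays labelled as biological replicates of 1 cell line.

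A small interfering RNA is loaded into an Argonaute protein, where its guide strand directs cleavage of a transcript that it matches in full. The seed, the bases near the 5′ end of the guide strand, can also pair with many partly matching transcripts and lower them in the manner of a microRNA, so an siRNA can act on genes it was not designed against. Double-stranded RNA can also be sensed by proteins such as TLR3, RIG-I and PKR, which switch on interferon-stimulated genes. Negative control siRNAs are designed to match no transcript and serve as the reference for the load of RNA and transfection reagent. The sequences of both control siRNAs are not given in the sources used here, so no pairing with transcripts was examined.

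The arrays were alike in overall quality. Values are MAS5 signals, linear intensities that were scaled on each array to a trimmed mean of 500. Median signals were 112 to 118 in the Dharmacon control and 116 to 120.4 in the Sigma control at 0 h, 112 against 117 to 119 at 4 h, and 104 to 107 against 113 to 116 at 8 h, so the medians did not overlap at 4 and 8 h. Log2 signals correlated at r = 0.9541 to 0.9605 between control arrays of 1 group and at r = 0.9491 to 0.9562 between the Dharmacon and Sigma controls of 1 time. Osteosarcoma and mesenchyme markers such as VIM and SPARC were bright, with median signals over the arrays of 16070.0 and 7160, while RUNX2, COL1A2 and TWIST1 lay at medians of 14.2, 24.3 and 3.28. None of the 11 leukocyte markers measured (medians up to 43.4, CD3D) and none of the 9 endothelial markers (up to 49.1, ERG) was called different for the mean of the times. Of 10 epithelial markers KRT18, KRT8 and EPCAM, at medians of 7026, 1233 and 326, were higher in the Dharmacon control, while CDH1 lay at 9.59, and their part in other results was not tested.

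The control siRNAs differed in the expression of many genes at each time. A difference was called at an adjusted p under 0.05 with limma over 22215 probe sets. At 0 h 1525 probe sets were higher (6.86%) and 1568 lower (7.06%) in the Dharmacon control than in the Sigma control, 13.9% of those tested. At 4 h 1238 were higher and 1731 lower (13.4%), and at 8 h 1218 were higher and 1565 lower (12.5%). For the mean of the differences at the 3 times 2328 were higher (10.5%) and 3368 lower (15.2%), 25.6% together. Most differences at 1 time were small, and 211 higher and 216 lower at 0 h reached 2-fold. With quantile normalization the counts became 1609 and 1543 at 0 h, 1381 and 1520 at 4 h, and 1386 and 1348 at 8 h, so at 0 and 8 h the larger number turned to the higher side. For comparison, the 2 siRNAs against NFYB differed from each other at 1840, 1763 and 1938 probe sets at 0, 4 and 8 h (8.28%, 7.94% and 8.72%).

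The differences recurred from time to time although each time used other arrays. Of the 1525 probe sets higher in the Dharmacon control at 0 h, 52.7% were also called higher at 4 h and 52.2% at 8 h, where 5.57% and 5.48% of all probe sets were called higher. Of the 1568 lower at 0 h, 50.4% were called lower at 4 h and 47% at 8 h, against 7.79% and 7.04% of all. No more than 7 of either set were called with the opposite sign at a later time. The calls at the 3 times share 1 estimate of spread for each probe set, and the shares of all include dim probe sets. Over the 13329 probe sets in the upper 60% by signal, the differences at 0 h correlated with those at 4 h at r = 0.61 and with those at 8 h at r = 0.61, which describes probe sets and not independent samples. In all, 1170 probe sets were called at every time with 1 sign, 5.27% of those tested. Of these 619 were higher in the Dharmacon control (2.79%, 489 genes) and 551 lower (2.48%, 454 genes), and a mean difference of 2-fold or more was found for 81 and 34 of them. The probe sets were mostly bright, with 1166 of the 1170 in the upper 60% by signal. Only LIMCH1 and NAV2 had a probe set called at all 3 times with signs that were not the same. LIMCH1 differed by -0.36, -0.35 and 0.55 on the log2 scale at 0, 4 and 8 h, and NAV2 by -0.37, 0.23 and 0.29.

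**Figure D1:**
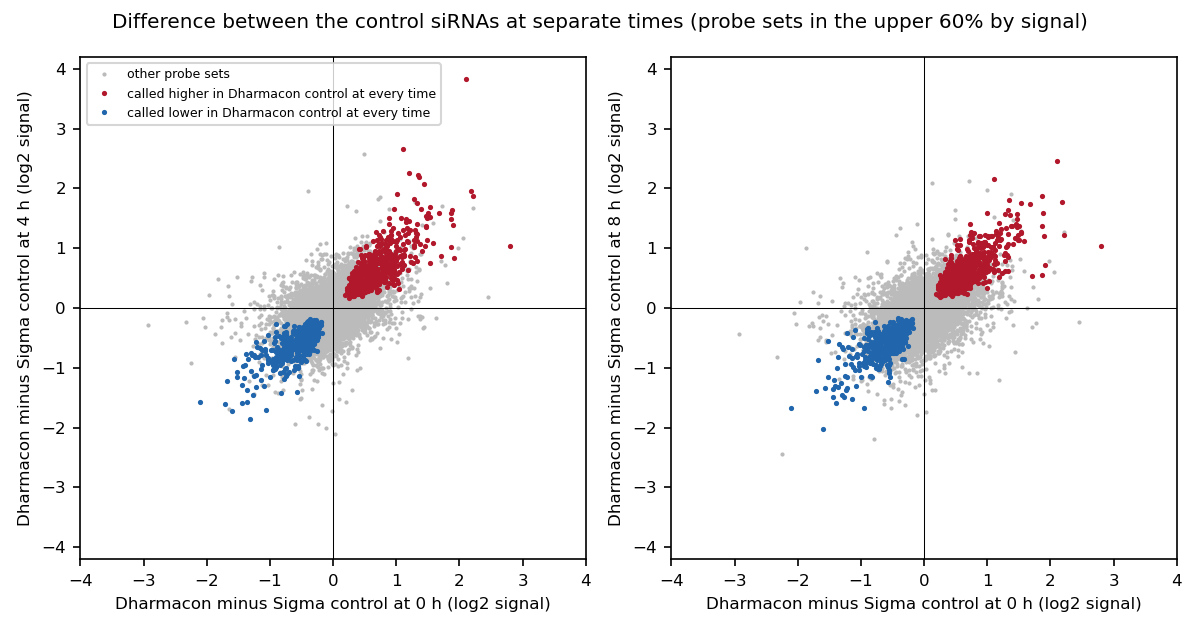
Difference between the control siRNAs, Dharmacon minus Sigma in log2 signal, at 0 h (horizontal axes) against 4 h (left) and 8 h (right) for the 13329 probe sets in the upper 60% by signal. Red points were called higher and blue points lower in the Dharmacon control at every time. Red points lie to the upper right and blue points to the lower left because the rule asks for 1 sign at all 3 times.

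Among the genes that were higher in the Dharmacon control at every time, the largest mean differences belonged to RECK, HMGA2 and NUP58. HMGA2, an architectural chromatin protein and a classic microRNA target, had signals of 2107, 2015 and 1987 in the Dharmacon control and 934, 935 and 969.9 in the Sigma control at 0 h. At 4 h it had 1033, 1122 and 1044 against 140.3, 181 and 190.4, and at 8 h 952, 1111 and 1069 against 237, 228 and 233. Every Dharmacon array lay above every Sigma array of its time, and the gap widened after OHT as HMGA2 fell further in Sigma control cells. The mean difference over the times was 1.97 ± 0.07 on the log2 scale (SE, 3 arrays a group and time, limma adjusted p = 2.2e-20), or 3.93-fold. The probe set of RECK, a membrane inhibitor of matrix metalloproteinases, had 415, 455 and 528 against 126, 130.1 and 75.3 at 0 h, and 128, 95.3 and 96.9 against 24.1, 20.5 and 14.7 at 8 h. These groups did not overlap either, but the brightest probe set of RECK, which can pick up other transcripts, differed by only -0.11 over the times (adjusted p = 0.48). NUP58, a component of the nuclear pore, had 772, 723 and 836 against 150, 195 and 171 at 0 h and stayed apart by 1.96 at 4 h and 1.78 at 8 h on the log2 scale.

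DICER1 encodes the RNase that cuts double-stranded RNA and microRNA precursors into short RNAs, and its level differed too. One probe set gave 551, 623 and 600.3 in the Dharmacon control and 239, 266 and 201 in the Sigma control at 0 h. The values were 598, 566 and 642 against 142, 182 and 218 at 4 h, and 652, 571 and 576 against 332, 309.7 and 355 at 8 h. The Dharmacon arrays stayed near 600 throughout, while the Sigma arrays were lower at each time and highest at 8 h. The mean difference was 1.31 ± 0.09 on the log2 scale (SE, adjusted p = 1.1e-12), and 2 further probe sets of DICER1 were called higher at every time with mean differences of 1.56 and 1.13. The remaining 3 probe sets of the gene were dimmer and were not called. Of 13 measured genes of the RNA interference machinery, 2 were called higher (DICER1 and the Argonaute gene AGO1) and none lower for the mean of the times, with a median difference of -0.02. Over all 11963 genes measured, each by its brightest probe set, 11.8% were called higher and 18.9% lower, with a median of -0.07. AGO1 differed by 0.23 ± 0.04 on the log2 scale (SE, adjusted p = 5.5e-05), and DROSHA, TARBP2, PRKRA and AGO3 lay between -0.14 and 0.10 and were not called.

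The other genes with much higher signal in the Dharmacon than in the Sigma control covered several functions. SLC2A3, a glucose transporter, had 1629, 1509.7 and 1646 in the Dharmacon control against 314, 377 and 343 in the Sigma control at 0 h, and 209, 162 and 203 against 113, 74.3 and 63.3 at 8 h. Its groups did not overlap at any time although its level fell over the hours of OHT in both, and the mean difference was 1.77 ± 0.10 (SE, adjusted p = 2.2e-15). A second SLC2A3 probe set was higher by 1.0 and another, whose sequence can match other transcripts, differed by -0.33 (adjusted p = 0.12). DCP2, which removes the cap from mRNAs before their decay, had 870.5 to 2381 over the 9 Dharmacon arrays (median 1425) and 301 to 905 over the 9 Sigma arrays (median 330.5). The remaining named genes in this direction were EHD2, CAV2 and PDLIM1 of membranes and the cytoskeleton, ATXN1 and CAMTA1 of the nucleus, the peroxisomal CROT, the coagulation inhibitor TFPI, OSTM1 of osteoclasts and lysosomes, and TTC9. Their mean differences were 1.5 to 1.79 on the log2 scale for the probe sets with the largest difference. Further probe sets gave 0.70 and -0.37 for CAV2, 0.66 and 0.22 for EHD2, 1.31 for ATXN1 and 0.12 for TTC9. Of these, -0.37, 0.22 and 0.12 were not called. The probe sets of 1 gene did not always behave alike, and of 5 TFPI probe sets 1 was higher by 1.56, 2 by 0.36 and 0.45, 1 was not called and 1 was lower by 0.50.

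Over all genes with an every-time probe set this could be counted. Of 650 further probe sets of these 940 genes in the upper 60% by signal, 478 (73.5%) had a mean difference of the same sign, 281 were called with that sign and 57 with the opposite one. The genes ARL1, CD164 and GMFB had every-time probe sets of both signs.

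Among the genes that were lower in the Dharmacon control at every time were several of amino acid metabolism and stress. NUPR1, a small stress-induced chromatin protein, had 559, 467 and 571 in the Dharmacon control and 1270.2, 1584 and 1369 in the Sigma control at 0 h. It had 468, 455 and 464 against 1014, 1191 and 939.9 at 4 h, and 288, 329 and 363 against 798, 737 and 890.4 at 8 h. Both controls lost signal with time, and the groups stayed apart with a mean difference of -1.30 ± 0.05 (SE, adjusted p = 4.8e-18). CSTA, a cysteine protease inhibitor, had 519, 445 and 485 against 1187, 1351 and 1194 at 0 h, with a mean difference of -1.42 over the times. SUGCT, a mitochondrial CoA transferase, had 112, 89.6 and 136 against 291, 365 and 360.0 at 0 h and 41.3, 45.2 and 34.7 against 155, 143 and 194 at 8 h. Its mean difference of -1.78 ± 0.12 (SE, adjusted p = 3.0e-13) was the lowest, beside that of HTN1, whose dim probe set can pick up related sequences. The remaining named genes with lower signal were ADGRL4, SPATA7, YPEL1, HSD17B3, LY96, GREB1, DNAL4, SLC7A11, DYNC2LI1, DDR2 and NDUFA7, with mean differences of -1.57 to -1.24. Of these, LY96 is the partner of TLR4 in the sensing of lipopolysaccharide, and DYNC2LI1 belongs to the dynein of cilia. HSD17B3, GREB1 and DNAL4 had dim probe sets too, with mean log2 signals of 5.82, 6.19 and 6.30, against 5.98 for HTN1. Further GREB1 probe sets, dimmer still, gave 0.97 and 0.62 and were not called. A second DYNC2LI1 probe set was called lower at every time, with a mean difference of -0.92.

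**Figure D2:**
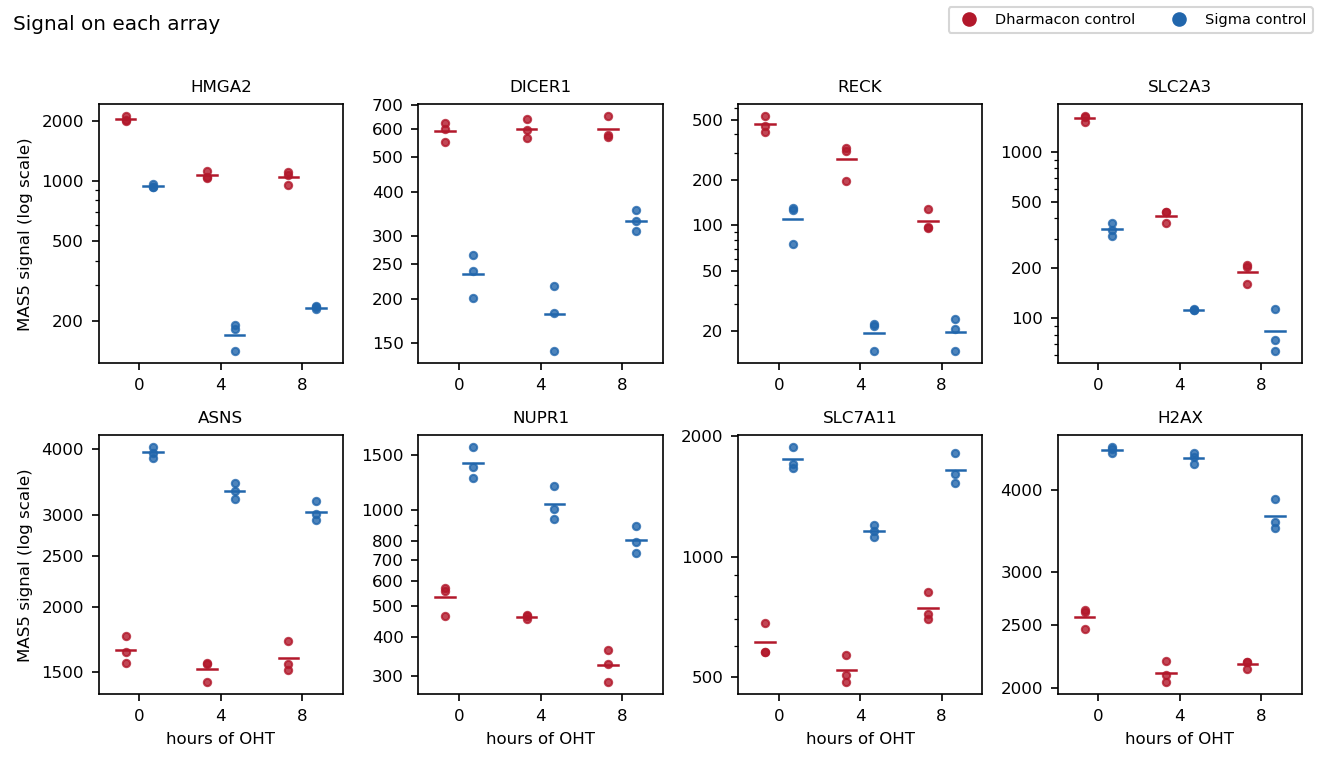
MAS5 signal (log axis) of 8 genes on each array by hours of OHT, with the Dharmacon control (red) left of the Sigma control (blue), points for the 3 arrays and a line for their mean. HMGA2, DICER1, RECK and SLC2A3 lay above the Sigma control on every Dharmacon array, and ASNS, NUPR1, SLC7A11 and H2AX lay below it.

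The targets of ATF4 were the gene list with the largest share of members lower in the Dharmacon control. ATF4 is translated when amino acids are short or proteins misfold, and it then raises genes for amino acid uptake, amino acid synthesis and tRNA charging. Of 27 measured genes 19 were called lower and none higher for the mean of the times (70.4%, against 18.9% of all genes), with a median of -0.32. At 0, 4 and 8 h 17, 15 and 9 were called lower, against 8.85%, 10.6% and 8.54% of all genes, and 8 were lower at every time, against 3.32%. ASNS, asparagine synthetase, had 1643, 1758 and 1565 in the Dharmacon control and 3946, 3857 and 4042 in the Sigma control at 0 h. At 4 h it had 1435, 1557 and 1563 against 3333, 3454 and 3209, and at 8 h 1722, 1558 and 1518 against 2927, 3186 and 3016. The Dharmacon arrays stayed near 1600 and the Sigma arrays fell towards them, and the mean difference was -1.11 ± 0.04 (SE, adjusted p = 3.1e-20).

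SLC7A11, the cystine transporter, had 578, 579 and 683 in the Dharmacon control and 1708, 1669 and 1880.3 in the Sigma control at 0 h. It had 701, 719 and 819 against 1819, 1612 and 1526 at 8 h, and all 3 of its probe sets were called lower at every time with means of -1.20 to -1.27. The serine synthesis genes PHGDH and PSPH differed by -0.65 and -0.97, the mitochondrial PCK2 by -0.67, the glutamine transporter SLC1A5 by -0.66 and CTH, which makes cysteine, by -0.78. CHAC1, which degrades glutathione, and DDIT4, an inhibitor of mTORC1, differed by -1.26 and -1.18 at 0 h but by -0.12 and -0.06 at 8 h. This change between 0 and 8 h was called for both (adjusted p = 2.5e-05 and 1.8e-04), and also for MTHFD2 of mitochondrial folate metabolism (adjusted p = 0.012), where 0.56% of all genes had a more positive change called. ATF3, ATF5, GARS1, PSAT1, SLC7A1, SLC7A5, STC2 and VLDLR were not called, with mean differences between -0.31 and 0.09. ATF4 itself, from the endoplasmic reticulum stress list, differed by -0.51, -0.32 and -0.04 at 0, 4 and 8 h.

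**Figure D3:**
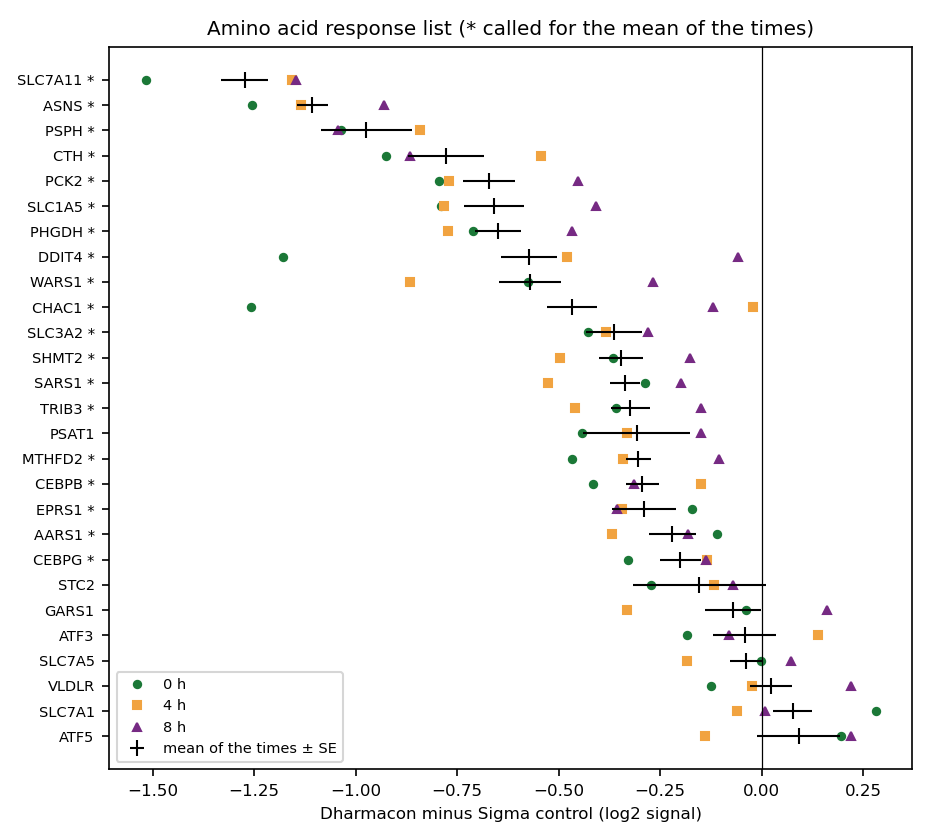
Difference between the control siRNAs, Dharmacon minus Sigma in log2 signal, for the 27 measured genes of the amino acid response list at 0 h (circles), 4 h (squares) and 8 h (triangles), with the mean of the times and its SE in black. The 19 genes with a star were called for the mean of the times and all of them lie left of 0, with SLC7A11, ASNS and PSPH the lowest.

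Because these genes moved together, the promoters of the list were searched for the core of the C/EBP-ATF response element, to which ATF4 binds with a C/EBP partner. The letters were TGATGNAA, with N for any base, on both strands and in RefSeq windows (GRCh38.p14) that reach 250 bases before and 50 bases after the start site. No other motif was searched. Of 35116 promoter windows 3.62% held the letters, and of 27305 genes 4.46% held them in 1 window or more. Of 24 list genes with a window, 9 held them, namely 6 of the 16 called lower (ASNS, CHAC1, SLC1A5, AARS1, CEBPG and SLC3A2) and 3 of the 8 not called (ATF3, GARS1 and SLC7A1). The upstream matches of genes called lower are shown 5′ to 3′ on the strand of the gene, with the matching letters, or their reverse complement, in capitals.
ASNS: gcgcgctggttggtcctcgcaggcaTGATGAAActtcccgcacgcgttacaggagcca
SLC1A5: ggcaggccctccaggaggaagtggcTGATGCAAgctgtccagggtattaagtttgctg
CEBPG: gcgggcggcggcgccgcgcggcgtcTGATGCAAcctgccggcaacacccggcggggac
CHAC1: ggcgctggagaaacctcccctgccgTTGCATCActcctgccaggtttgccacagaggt
AARS1: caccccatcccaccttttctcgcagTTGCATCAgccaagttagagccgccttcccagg
These windows lie at chr7:97872444-97872501 (minus strand) for ASNS, chr19:46784879-46784936 (minus) for SLC1A5, chr19:33374046-33374103 (plus) for CEBPG, chr15:40953237-40953294 (plus) for CHAC1 and chr16:70289661-70289718 (minus) for AARS1. The first capital stood 68 bases before the start site in ASNS, 97 in SLC1A5, 42 in CEBPG, 209 in CHAC1 and 187 in AARS1. The mean differences of these genes ran from -1.11 in ASNS to -0.20 in CEBPG. A match is a description of the sequence, and the letters occurred in called and in uncalled genes.

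Mitochondrial genes were mostly lower in the Dharmacon control, by small amounts. Of 43 measured genes of the mitochondrial ribosome 25 were called lower and none higher for the mean of the times (58.1% lower, against 18.9% of all genes). The median was -0.20, and 9 were lower at every time (20.9%, against 3.32% of all genes). MRPS33 differed most among those named, with 421, 439.6 and 470.4 in the Dharmacon control against 836, 775 and 794 in the Sigma control at 8 h and a mean difference of -0.81. Of 46 genes of oxidative phosphorylation 23 were lower and 2 higher (50% lower), with a median of -0.15. COX5B of cytochrome c oxidase had 3698, 3907 and 4333 against 5425, 5499 and 5813 at 8 h and a mean difference of -0.49 ± 0.04 (SE, adjusted p = 4.3e-12). NDUFA7 of complex I had 305, 274 and 342 against 677, 700.3 and 773 at 0 h, and its mean difference of -1.24 stood apart from the rest of the list, where those called lay between -0.49 and 0.12. COX6C and ATP5F1B were called higher, by 0.12 each. Of 40 genes of the cytosolic ribosome 8 were lower (20%, near the share of all genes) and none higher, and with quantile normalization 16 were lower.

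Several genes of the p53 response and histones were lower in the Dharmacon control. Of 18 measured p53 targets 9 were called lower (50%, against 18.9% of all genes) and 2 higher (11.1%, against 11.8%) for the mean of the times, with a median of -0.20. The death receptor FAS had 525, 611 and 568 in the Dharmacon control against 1054, 996 and 1131 in the Sigma control at 0 h, and 326, 309 and 299.9 against 466, 531 and 496 at 8 h, a mean difference of -0.80 ± 0.05 (SE, adjusted p = 9.9e-14). BAX, which permeabilises the outer mitochondrial membrane, differed by -0.55 and TP53I3 by -0.45. CDKN1A, the cell cycle inhibitor p21, and SESN1 went the other way, and CDKN1A differed by 0.32, 0.23 and 0.39 at 0, 4 and 8 h. Of 11 histone genes 5 were lower (45.5%) and 1 higher (9.09%). H2AX, the variant that is phosphorylated at DNA breaks, had 2616, 2463 and 2626 against 4612, 4559 and 4648 at 0 h and 2196, 2139 and 2196 against 3502, 3579 and 3880.3 at 8 h. The groups were far apart, with a mean difference of -0.89 ± 0.03 (SE, adjusted p = 3.9e-19). H2AC6 and H2BC5, members of families with near-identical copies, differed by -0.72 and -0.45 and cannot be assigned to 1 copy with certainty.

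Among sensors of double-stranded RNA and interferon-stimulated genes some members were called in either direction. Of 42 measured genes 11 were called lower (26.2%, against 18.9% of all genes) and 5 higher (11.9%, against 11.8%) for the mean of the times, and with quantile normalization 9 were lower. The median was -0.24, and many members had signals near the lower end of the scale. RIGI, a sensor of RNA with a triphosphate end, had 245, 251 and 259 in the Dharmacon control against 469, 446 and 507 in the Sigma control at 0 h, 120.2, 128 and 97.5 against 216, 217 and 205 at 4 h, and 63.5, 44.6 and 62.7 against 118, 115 and 87.3 at 8 h. Its groups did not overlap, and the mean difference was -0.91 ± 0.09 (SE, adjusted p = 1.4e-09). The interferon-stimulated IFI16 and IFI44 differed by -0.71 and -0.69 and were lower at every time. TLR3, IFIH1 and EIF2AK2 (PKR) were not called, IFNB1 was dim, and OAS3, MAVS, IFI6, ZC3HAV1 and PSMB9 were called higher. Of 21 NF-kB targets 6 were lower (28.6%) and 2 higher (9.52%). CXCL8, a chemokine, had 626, 472 and 402 against 1533, 1058 and 706 at 4 h and 393, 292 and 319.5 against 1380.0, 972 and 771 at 8 h, with a wide spread between Sigma arrays and a mean difference of -1.11 ± 0.17 (SE, adjusted p = 5.0e-06).

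Many extracellular matrix genes and the TGF-beta receptors TGFBR2 and TGFBR3 were higher in the Dharmacon control. Of 37 measured matrix genes 14 were called higher (37.8%, against 11.8% of all genes) and 5 lower (13.5%, against 18.9%) for the mean of the times. Their median was 0.13, and 7 were higher at every time, against 3.23% of all genes. TGFBI, a matrix protein that TGF-beta induces, had 3059, 3107 and 3126 in the Dharmacon control against 1222, 951 and 1159.8 in the Sigma control at 0 h, and 811, 810.5 and 838 against 309.7, 403 and 412 at 8 h, with a mean difference of 1.26 ± 0.07 (SE, adjusted p = 6.5e-15). COL4A1 of basement membranes differed by 0.82, COL1A1 by 0.61 and the crosslinking enzyme LOXL2 by 0.60. TGFBR2, the receptor that binds TGF-beta, had 3782, 3579 and 3534 against 2046, 1873 and 1977 at 0 h and 1574, 1722 and 1451 against 563, 539 and 574 at 4 h, with a mean difference of 1.15 ± 0.04 (SE, adjusted p = 1.2e-19). The coreceptor TGFBR3 differed by 1.70 at 0 h and 0.54 at 8 h, and LTBP1, which holds latent TGF-beta in the matrix, by 0.78. The list of TGF-beta and BMP signalling as a whole had 8 genes higher (40%) and 5 lower (25%) of 20. Among the lower ones were ID3 (-0.60) and the type I receptor TGFBR1. Of 16 matrix metalloproteinases and inhibitors 7 were lower (43.8%) and 2 higher (12.5%, near the share of all genes). The higher ones were the inhibitors TIMP2 and TIMP3. MMP3, stromelysin, had 515, 511 and 530.0 against 1187, 1132 and 1298 at 0 h, while at 8 h its values of 688, 553 and 507 overlapped with 904, 760.0 and 665. Osteosarcoma and mesenchyme markers were split for the mean of the times, with 4 of 14 called higher and 4 lower. Both shares were 28.6%, against 11.8% and 18.9% of all genes. Among the higher ones were COL1A1 and CDH11, and among the lower ones CD44 and SPP1. SPP1, osteopontin, had 604, 734 and 526 against 1649, 1335 and 1531 at 0 h, with a mean difference of -0.92.

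Some genes of lipid synthesis and protein folding were higher by smaller amounts. Of 17 cholesterol synthesis genes 6 were called higher (35.3%, against 11.8% of all genes) and 1, PMVK, lower for the mean of the times. HMGCS1, the synthase before HMG-CoA reductase, had 3197, 3294 and 3374 in the Dharmacon control against 1736, 1709 and 1953 in the Sigma control at 0 h, with a mean difference of 0.68, as large as that of INSIG1, the sterol-regulated retention protein. Of 14 fatty acid synthesis genes 3 were higher (21.4%, SCD, ACLY and ACACA) and 2 lower (14.3%, ME1, by -0.22, and LPIN1), with a median of 0.04. SCD, the fatty acid desaturase, had 6911, 6979 and 6887 against 4192, 4552 and 4779 at 8 h, and differed by 0.47 ± 0.04 (SE, adjusted p = 8.0e-12). Of 25 genes of endoplasmic reticulum stress 9 were higher (36%) and 3 lower (12%, against 18.9% of all genes). The higher ones included the chaperones CANX (0.50), CALR (0.39) and PDIA3 (0.29), and the lower ones were ATF4, TRIB3 and DNAJC3. Of 20 heat shock chaperones 6 were higher (30%) and 2 lower (10%), with a median of 0.03. Of 26 proteasome genes 7 were higher (26.9%) and 1 lower (3.85%), and of 19 MHC genes 5 were higher (26.3%) and 1 lower (5.26%). LIPA, the lysosomal acid lipase, had 1251, 1334 and 1209.8 against 493, 583 and 658 at 8 h. However, 10 of 30 lysosome genes were lower (33.3%, against 18.9% of all genes) and 3 higher (10%, against 11.8%). The lists of DNA replication and G1/S (10 higher and 9 lower of 51), of G2/M and mitosis (7 and 9 of 46) and of immediate-early genes (6 and 5 of 27) had about as many members in either direction. In this order their lower shares of 17.6%, 19.6% and 18.5% were near the 18.9% of all genes. Their higher shares were 19.6%, 15.2% and 22.2%, against 11.8%. None of 9 metallothioneins was called.

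**Figure D4:**
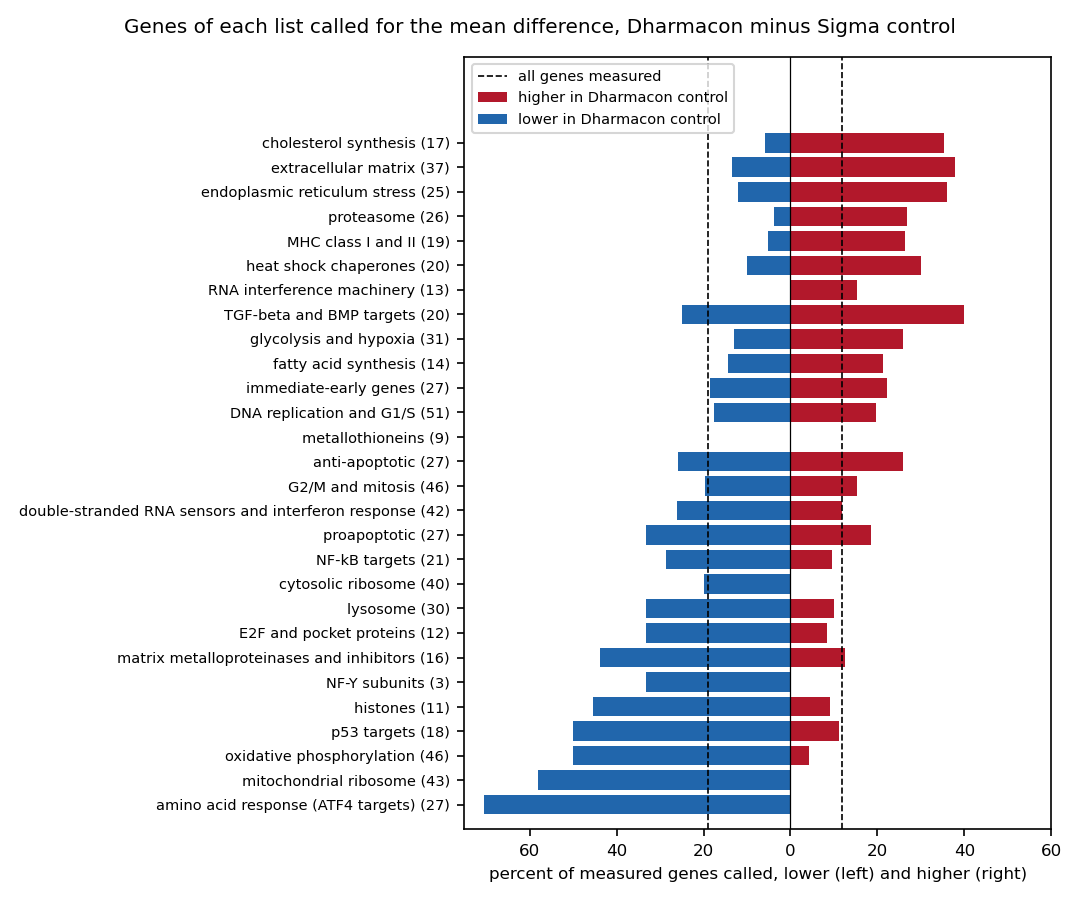
Percent of the measured genes of each list (number in brackets) that were called higher (red, right) or lower (blue, left) in the Dharmacon control than in the Sigma control for the mean of the 3 times. Dashed lines mark all 11963 genes, at 11.8% higher and 18.9% lower, and the amino acid response list has the longest bar, with 70.4% lower.

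The response to OHT was called different between the control siRNAs for fewer probe sets than the level at 1 time. This test is less sensitive, and on simulated data it recovered at 8 h 8 of 100 changes of log2 0.5 and 42 of 100 changes of 1, against 26 and 53 for the difference at 0 h. Far fewer probe sets were changed in the simulation than were called at 0 h, so the recovered shares need not hold for these arrays. From 0 to 8 h 10151 probe sets changed in the Dharmacon control (45.7%) and 9970 in the Sigma control (44.9%), an effect of OHT that cannot be told apart from that of further starvation. The difference of these responses was called for 181 probe sets (0.815%), 88 with a more positive (0.396%) and 93 with a more negative change (0.419%) in the Dharmacon control. For 4 h it was called for 131 probe sets (0.59%), 65 more positive (0.293%) and 66 more negative (0.297%). Both differences use the same 0 h arrays. Without Sigma control replicate 2 at 4 h the count at 4 h was 86, and without Sigma control replicate 1 at 8 h the count at 8 h was 119.

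Many named genes of this comparison differed more at 0 h than after OHT. TOX, an HMG-box chromatin protein, had 36, 66.8 and 59.8 in the Dharmacon control and 216, 206 and 195 in the Sigma control at 0 h. At 8 h it had 1212, 1119.5 and 916 against 1012, 1014 and 972, which overlap, and its rise was greater in Dharmacon control cells by 2.08 ± 0.26 on the log2 scale (SE, adjusted p = 2.1e-05). PRR16 had 56.6, 70.9 and 85.1 against 304, 276 and 277 at 0 h and 692, 633 and 594 against 767, 806 and 745 at 8 h, a difference of responses of 1.76 ± 0.18 (SE, adjusted p = 3.7e-07). The galactosyltransferase B4GALT6 had 73.4, 85.7 and 95.1 against 246, 268 and 284 at 0 h and 1405, 1371 and 1149 against 1378, 1443 and 1532 at 8 h. EGR4, an immediate-early transcription factor, was dim at 0 h, with 2.81, 1.18 and 2.84 against 15.9, 21.4 and 12.4, so that its difference of responses of 2.51 at 8 h rests on signals at the lower end of the scale. TXNIP, an inhibitor of thioredoxin, had 41.0, 50.8 and 54.9 against 277, 218 and 244 at 0 h and 33.9, 27.1 and 43.3 against 27.7, 58.1 and 40.2 at 4 h. HEY1, a Notch effector, changed more in the Dharmacon control by 1.56 at 4 h and 1.47 at 8 h, again from a lower level at 0 h.

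In the other direction, TTC9 had 85.92, 115.80 and 133.01 in the Dharmacon control and 28.5, 18.7 and 7.36 in the Sigma control at 0 h, and 1302, 1376 and 1227 against 564, 671 and 671 at 8 h. It rose in both, by 1.76 less on the log2 scale in Dharmacon control cells (SE 0.355, adjusted p = 0.007). The other TTC9 probe set differed between the controls by 0.69, -0.42 and 0.10 at 0, 4 and 8 h. It was called at 0 h only and not for the mean of the times. MOB3B, of the Mps one binder family, had 373, 348 and 387 against 95.8, 123 and 122 at 0 h and 79.7, 72.6 and 80.3 against 108, 83.7 and 101 at 8 h, with a difference of responses of -2.03 ± 0.31 (SE, adjusted p = 2.5e-04). All Dharmacon arrays lay below the Sigma arrays at 8 h, a difference of -0.32 that was not called (adjusted p = 0.41). DNPH1, a nucleotide hydrolase, overlapped at 0 h and had 16, 24.7 and 43.5 against 85.2, 77.1 and 98.4 at 8 h. GADD45B, a stress-induced gene, differed by 1.38 at 0 h and -0.14 at 4 h. HMGA2 and CXCL8 show that a gap could also widen: for HMGA2 the difference of responses was 1.55 at 4 h and 1.06 at 8 h and was called, while for CXCL8 it was -0.96 at 8 h with an adjusted p of 0.43.

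**Figure D5:**
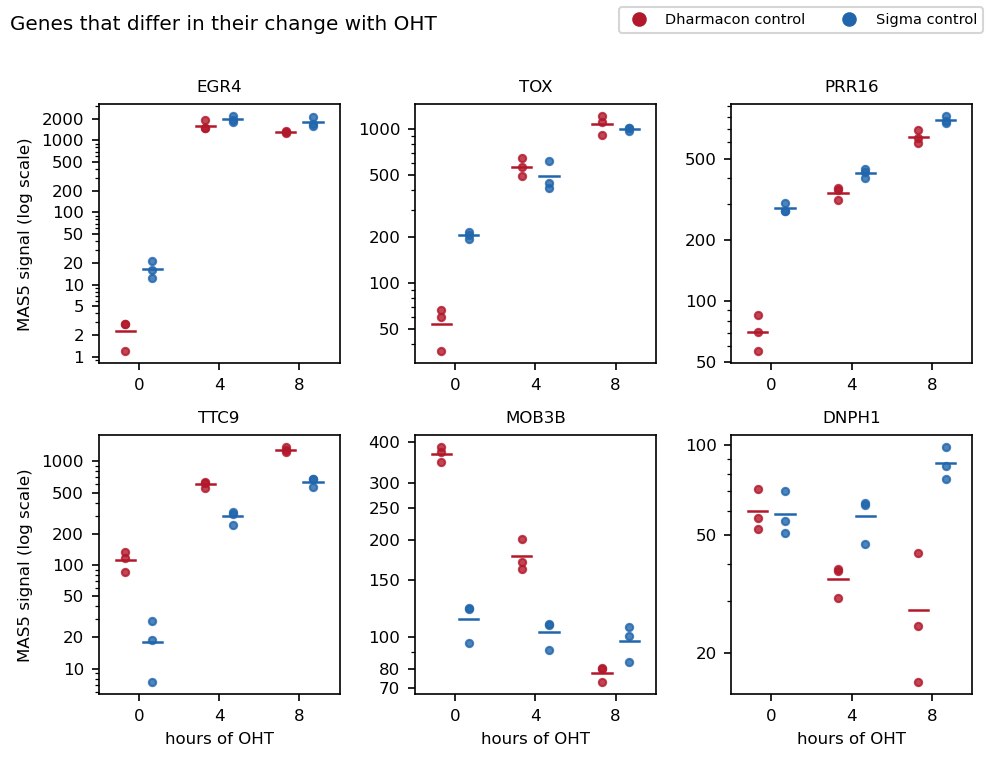
MAS5 signal (log axis) on each array by hours of OHT for 6 genes called for a difference of responses, with the Dharmacon control (red) left of the Sigma control (blue), points for the 3 arrays and a line for their mean. EGR4, TOX and PRR16 start lower in the Dharmacon control, TTC9 and MOB3B start higher, and DNPH1 overlaps at 0 h only.

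Cells with an siRNA against NFYB lay between the controls at most probe sets that differed at every time. This held for 406 to 479 of the 619 higher and 309 to 409 of the 551 lower ones. The probe sets were chosen because the controls differed, and the same control arrays set the scale, so other cells tend to fall between. These cells also had NFYB lowered, so the positions do not tell which control departed from cells without siRNA. On a scale with the Sigma control at 0 and the Dharmacon control at 1, the median position of the 619 higher probe sets was 0.42 to 0.54 over the 2 NFYB siRNAs and the 3 times. For the 551 lower ones it was 0.27 to 0.36, nearer to the Sigma control. NUP58 averaged 287 with the Ambion and 347 with the Dharmacon siRNA against NFYB at 8 h, closer to the Sigma control at 251 than to the Dharmacon control at 862. FAS averaged 297 and 312, close to the Dharmacon control at 312 and below the Sigma control at 497. For the higher probe sets the median positions at 0, 4 and 8 h were 0.44, 0.42 and 0.42 with the NFYB siRNA from Dharmacon and 0.49, 0.54 and 0.46 with the one from Ambion. For the lower probe sets they were 0.36, 0.32 and 0.35 with the one from Dharmacon and 0.36, 0.32 and 0.27 with the one from Ambion.

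The fold change of knockdown can be taken against either control. NFYB itself overlapped between the controls, with 717, 682 and 579 in the Dharmacon control and 588, 702 and 626 in the Sigma control at 8 h, and the mean of both NFYB siRNAs lay 2.46 below the Dharmacon control and 2.41 below the Sigma control on the log2 scale. Against the Dharmacon control 1559 probe sets were higher and 1500 lower with NFYB siRNA at 8 h (13.8%), and against the Sigma control 1153 were higher and 1478 lower (11.8%), with the same NFYB siRNA arrays in both. HMGA2 differed by -1.60 from the Dharmacon control (adjusted p = 2.3e-13) and by 0.56 from the Sigma control (adjusted p = 1.6e-04). ASNS differed by 0.39 and -0.54, NUPR1 by 0.52 and -0.79, and SLC7A11 by 0.39 and -0.76, each called against both controls with opposite signs. TGFBI differed by -1.07 from the Dharmacon control and by 0.07 from the Sigma control, and H2AX by 0.77 and 0.03, each called against the Dharmacon control only.

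Genes that the study followed after NFYB knockdown are set against each control in turn. Each is given by the brightest probe set that names it alone. For API5, NFYC and FOLH1 this is not among the probe sets that the study lists. API5, an apoptosis inhibitor, was higher in the Dharmacon than in the Sigma control at every time, by 0.59, 0.48 and 0.35, and NFYB knockdown differed from the Dharmacon control by -0.61 and from the Sigma control by -0.27 at 8 h. In the same order SFRP1, a Wnt inhibitor, differed by -1.43 and -1.07 with knockdown, the apoptosis gene SIVA1 by 0.60 and 0.53, and the paracaspase MALT1 by -0.34 and -0.50. NFYA was higher with knockdown by 1.05 and 0.84, and it was called lower in the Dharmacon than in the Sigma control for the mean of the times (-0.20), a call that was lost when replicate number 1 of every group was left out (-0.15, adjusted p = 0.14) and when number 3 was (-0.16, adjusted p = 0.15). For SFRP1 the mean Dharmacon minus Sigma difference was 0.23 to 0.34 with arrays left out. It was -0.24 to -0.20 for SIVA1 and -0.35 to -0.24 for MALT1. SIVA1 and MALT1 were called in all 21 of these fits, and SFRP1 in all but that without replicate number 2 of every group (limma adjusted p = 0.12). E2F1, NFYC, PRKCZ and FOLH1 had mean differences between -0.30 and -0.01 between the control siRNAs, of which only that of E2F1 was called (adjusted p = 0.025). It was not called with quantile normalization (adjusted p = 0.087), where NFYC turned to 0.01, nor without Dharmacon control replicate 2 at 0 h (0.075), Dharmacon control replicate 1 at 8 h (0.058) or Sigma control replicate 3 at 4 h (0.070), and not when replicate number 1, 2 or 3 of every group was left out (0.11, 0.13 and 0.060). The FOLH1 value rests on a dim probe set with signals of 4.88 to 30.7 in the Dharmacon control and 7.93 to 24.3 in the Sigma control and an SE of 0.43, while further probe sets that match FOLH1 name several genes and were not used for it.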

How the data were processed

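Values were taken from 36 Affymetrix Human Genome U133A 2.0 arrays. The deposited values were linear signal intensities that the authors computed with the MAS5 algorithm in Affymetrix Expression Console (version not given in the sources used here), on a scale where the mean of each array, trimmed by 2% on either side, is 500. MAS5 gives no floor, signals ran down to 0.0308, and no detection calls were analysed here, so dim probe sets carry large log2 errors. The number of arrays limits the precision.

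Log2 intensities of 22215 probe sets, without 62 control probe sets, were fitted in limma 3.58.1 (R 4.3.3) as 12 group means of siRNA and time, with moderated variances that follow the signal (24 residual degrees of freedom). Contrasts were Dharmacon minus Sigma control at each time, the mean of the 3 differences, the difference of the changes from 0 h, and NFYB siRNAs against each control. Tests were two-sided with Benjamini-Hochberg adjustment over all probe sets. The methods' unequal-variance test was run as an alternative. In a test on simulated data, 100 probe sets were changed by log2 0.5 and 100 by 1. The call at 0 h recovered 26 and 53 of them, with 6 false calls, and the call at every time recovered 16 and 47 with none. The simulated noise was independent between probe sets, and far fewer were changed than were called at 0 h, so these rates describe that setting.

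Of the probe sets 19064 name 1 gene, 1043 several and 2108 none in the platform annotation. Gene lists used the brightest probe set of each of 11963 genes. Named genes were the 15 highest and 15 lowest every-time probe sets in the upper 60% by signal, the 5 highest and 5 lowest differences of responses at each time, up to 4 called members of each list by adjusted p, and the genes of the study. Further members of the lists were named after their values were seen. The members and lists were chosen with earlier results of these data known. The alternatives tried were quantile normalization, 16 added to each signal, a variance without trend, the brightest 60% of probe sets, only control siRNA arrays, the replicate number as a block, the mean over a gene's probe sets, and leaving out arrays. Python 3.11.15 with pandas 2.3.3, numpy 2.4.6 and matplotlib 3.10.9 served for tables, promoters and plots.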

Additional observations from a re-analysis of the deposited data

Results flagged for a closer look

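The change with OHT differed between the control siRNAs by a test of the difference itself for 131 probe sets at 4 h and 181 at 8 h. Both tests used the same 0 h arrays. Positive values mean a more positive change in the Dharmacon than in the Sigma control.

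On the log2 scale the highest differences at 4 h among named probe sets were those of EGR4 (2.65), TOX (2.19), TXNIP (2.10), B4GALT6 (2.02) and PRR16 (1.71). The lowest at 4 h were TTC9 (-1.76), GADD45B (-1.52), POMZP3 (-1.37), SLC2A8 (-1.24) and the phosphatase DUSP3 (-1.18). At 8 h the highest were EGR4 (2.51), TOX (2.08), PRR16 (1.76), B4GALT6 (1.5) and HEY1 (1.47). The lowest at 8 h were MOB3B (-2.03), DNPH1 (-1.78), TTC9 (-1.76), DOHH (-1.41), which completes the hypusine of eIF5A, and the membrane protein TMEM63A (-1.40).

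GADD45B, a stress gene, had 479, 561 and 476 in the Dharmacon control and 189, 197 and 195 in the Sigma control at 0 h. At 4 h the values of 548, 606 and 552 overlapped with 655, 625 and 599. HEY1 had 19.0, 50.9 and 69.7 against 137, 136 and 142 at 0 h and 6121, 6611 and 6422 against 7982, 7462 and 8046 at 8 h, so that its signals at 0 h were dim beside those reached later.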

How the results depend on the processing

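The methods' unequal-variance test on 3 arrays a group called far fewer probe sets. On log2 signal at an adjusted p under 0.05 it called 0 at 0 h, 2 at 4 h and 73 at 8 h, and 1296 over 9 arrays a control. On linear signal it called 25, 38, 14 and 1200 at that threshold. By limma 3093 were called at 0 h at the same adjusted threshold. At an unadjusted p under 0.05 the unequal-variance test called 3671 at 0 h on log2 signal, a looser threshold that is not comparable with the 3093. At the methods' unadjusted threshold it called 243, 281, 286 and 920 on log2 signal and 250, 283, 265 and 864 on linear signal. At each single time the spread is estimated from fewer arrays there. The 9 arrays a control span the 3 times, and the reason for the lower count with them was not tested.

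The counts of calls over all probe sets stayed within 1.5 times with quantile normalization, 16 added to each signal, a variance without trend, the brightest 60% of probe sets and control siRNA arrays only, where these could be run. Contrasts with NFYB siRNAs could not be fitted on control arrays only. With arrays left out, 1 at a time or 1 replicate number from every group, the counts were 1600.0 to 2679 at 0 h, 1381 to 2685 at 4 h, 1158 to 2371 at 8 h, 3898 to 5541 for the mean of the times and 469 to 1086 at every time. They were 18 to 174 for the difference of 4 h responses and 53 to 169 for that of 8 h. They were 683 to 1126, 716 to 1003 and 502 to 1780.0 between the NFYB siRNAs at 0, 4 and 8 h, 1455 to 2283 and 995 to 1580.0 for NFYB siRNAs against the Dharmacon and the Sigma control, and 8701 to 9060.0 and 8567 to 8767 for the 8 h responses of the Dharmacon and Sigma controls. The lowest counts came without replicate number 2, which leaves 2 arrays a group.

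With the replicate number as a block 3165, 3027 and 2846 probe sets were called at 0, 4 and 8 h. Same-numbered arrays of both controls did not deviate together (r = -0.166 to 0.125 over 9 pairs), so the numbers were not taken to pair the samples. Of 4283 values of named probe sets under alternatives, 4245 kept direction and call, among them all 2408 of the 86 every-time probe sets. The 17 that changed sign were not called. DOHH (0.02) lay between -0.093 and 0.116 with arrays left out and was below 0 in 7 of these fits, and FOLH1 (-0.17) lay between -0.592 and 0.591. NFYB (0.08) lay between -0.0080 and 0.130. NFYC (-0.01) turned to 0.0101 with quantile normalization and lay between -0.077 and 0.0314 with arrays left out. With the mean over a gene's probe sets, 3 fatty acid synthesis genes, 2 MHC genes and 0 NF-Y subunits were called. With quantile normalization 16 cytosolic ribosome genes were lower, against 8. The cause of these changes was not tested.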

Other observations

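Genes of the oxidative stress response that NFE2L2 controls were mostly lower in the Dharmacon than in the Sigma control. The list was chosen after values were seen and carries no test. Of 27 measured genes 18 were called lower and 2 higher for the mean of the times (66.7% lower, against 18.9% of all genes). The median was -0.35, and 7 were lower at every time (25.9%, against 3.32% of all genes). NQO1, a quinone reductase, differed by -0.68, -0.72 and -0.73 on the log2 scale at 0, 4 and 8 h (mean -0.71 ± 0.04, SE, limma adjusted p = 7.1e-15). GCLM, a subunit of the enzyme that starts glutathione synthesis, differed by -0.75 and the thioredoxin reductase TXNRD1 by -0.55. SLC7A11 belongs to this list and to that of ATF4 targets. PRDX1 and GSTM3 were the members called higher, by 0.22 and 0.26.

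Genes of intraflagellar transport and the ciliary transition zone were also mostly lower, in a list chosen in the same way. Of 38 measured genes 24 were called lower (63.2%, against 18.9% of all genes) and none higher (against 11.8%). The median was -0.31, and 9 were lower at every time (23.7%, against 3.32% of all genes). DYNC2H1, the heavy chain of the ciliary dynein, differed by -0.91 ± 0.12 (SE, limma adjusted p = 3.7e-07), IFT57 by -0.77 and IFT88 by -0.58. AHI1 and BBS7 lay at 0.22 and 0.23 and were not called.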
